A study of Homo sapiens and Mus musculus with 24 samples.

Results

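The response of PIK3CA H1047R mouse embryonic fibroblasts (MEF) to the PI3K inhibitor GDC0032 was measured by paired-end RNA sequencing in 6 libraries, 3 treated with GDC0032 at 500 nM and 3 treated with the solvent DMSO. These 6 were chosen by genotype and treatment from 12 MEF libraries and from 24 libraries in the whole series, which also holds human MCF10A cells. In both groups, Cre delivered by adenovirus had brought about the homozygous PIK3CA H1047R state. The wild-type MEF used for comparison had received adenovirus carrying GFP and were treated with DMSO or GDC0032, with 3 libraries in each group. Both H1047R groups carry the same virus and mutation, so virus and genotype cannot be told apart between H1047R and wild-type cells but are shared within the inhibitor comparison. The sources used here give no treatment time and do not say whether libraries of a group came from separate infections or cultures. P-values therefore measure the spread between these libraries, which may be technical.

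PI3K alpha is a lipid kinase at the plasma membrane that is switched on by growth factor receptors. PIK3CA encodes its catalytic subunit, and H1047R, in the kinase domain, is a frequent activating change in human tumours. Its lipid product recruits the kinase AKT, which keeps FOXO transcription factors out of the nucleus and turns on the growth regulator mTOR. GDC0032, also called taselisib, is an ATP-competitive PI3K inhibitor that acts on the alpha isoform and less on the beta isoform.

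The deposited MEF tables list 116248 mouse transcripts by Ensembl identifier and pair none of them with a gene. The reference used here holds human genes, so gene names, pathway lists, fibroblast markers and Pik3ca itself were not analysed here, and results are given for single transcripts. Total estimated read pairs were 45923450 to 52510597 in the DMSO libraries and 44494469 to 47067117 in the GDC0032 libraries. Of the transcripts listed, 86581 had an estimated count above 0 in at least 1 of the 6 libraries, and 55500 passed the filter on low counts. Levels are in CPM, estimated read pairs relative to a library total adjusted by TMM scaling, and a transcript was called when its Benjamini-Hochberg adjusted p in edgeR's quasi-likelihood test was under 0.05.

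The inhibitor separated the 6 H1047R libraries on the first principal component, which took 24.6% of the variance of log2 CPM. The DMSO libraries lay at -117, -68.0 and -62.3 and the GDC0032 libraries at 68.6 to 91.6. The second component (20.1%) set DMSO replicate 1, the deepest library, at 131. The other DMSO libraries were at -90.8 and -88.9 and the GDC0032 libraries at -8.71 to 38.9 on it, so replicate 1 stood apart and counts are also given without it. Replicates within the H1047R groups differed by a chi-square per degree of freedom of 8.49 to 8.94, so none was a copy of another.

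GDC0032 changed transcripts in both directions in H1047R cells. Of 55500 transcripts tested, 5560 were called (10.0%), of which 2382 rose (4.29%) and 3178 fell (5.73%). Among called transcripts, risers were fewer but more often changed by at least 1.5-fold. Such a change was seen in 890 risers (1.60% of all transcripts tested) and 647 fallers (1.17%), or 37.4% of all risers and 20.4% of all fallers. Changes of at least 2-fold were seen in 279 risers and 179 fallers. The median log2 fold change was 0.48 among risers and -0.35 among fallers, while over all transcripts tested it was 0.01. Risers had a median level of 11.1 CPM and a median length of 3152 nt, fallers 28.6 CPM and 2613 nt, and transcripts that were not called 1.31 CPM and 1654 nt. The median standard error of the log2 fold change was 0.0888 at 10 to 20 CPM and 0.0605 at 20 to 50 CPM. A call at a lower level thus needed a larger change, and the part of this in the sizes of called changes was not tested. In bulk RNA, a change in the number of cells of a type and a change in RNA per cell cannot be told apart.

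In nearly all called transcripts the libraries of the 2 groups did not overlap. In 2377 of the 2382 risers all 3 GDC0032 libraries lay above all 3 DMSO libraries, and in 3175 of the 3178 fallers they lay below. Over all transcripts tested, the corresponding shares were 14.1% and 14.8%. Without DMSO replicate 1, 3728 transcripts were called, with 1614 that rose and 2114 that fell. A similar drop was seen for each other H1047R library left out, with 3873 to 4241 calls. With library sizes left unscaled the split turned to 2993 risers and 2499 fallers (54.5% of calls upward against 42.8%), while the median log2 fold change of all transcripts moved from 0.01 to 0.05.

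**Figure D1:**
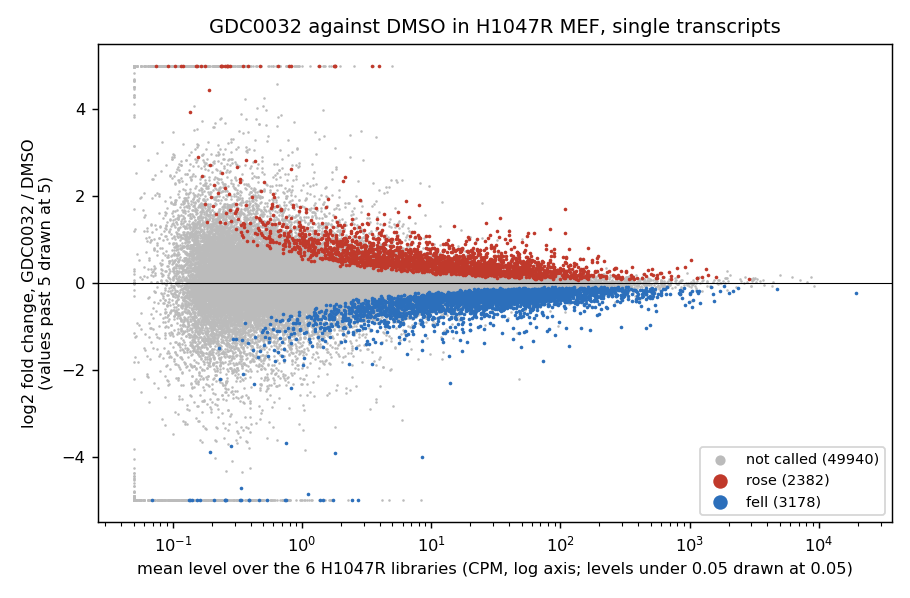
Each point is 1 of 55500 transcripts, with its mean level over the 6 H1047R libraries on a log axis and its log2 fold change with GDC0032; red points rose, blue points fell and grey points were not called. Below 1 CPM the called changes are large, while at 100 CPM or more changes close to 0 were called too, and more of them fell (489) than rose (161).

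The direction of change varied with transcript level. Among transcripts with a mean of 100 CPM or more in H1047R cells, 161 of 1643 rose (9.80%) and 489 fell (29.8%). Between 50 and 100 CPM the shares were 11.4% and 29.1%, and between 5 and 10 CPM they were 6.76% and 6.30%. Below that level more transcripts rose than fell, with 4.95% against 3.34% between 2 and 5 CPM and 2.63% against 1.34% between 1 and 2 CPM. The median log2 fold change of all transcripts went from 0.09 under 0.5 CPM to -0.05 at 100 CPM or more, and in wild-type MEF the medians of the same transcripts were 0.02 and -0.03. Precision differed over the same range: the median standard error of the log2 fold change was 0.691 under 0.5 CPM, 0.177 between 2 and 5 CPM and 0.0384 at 100 CPM or more. A change of a given size was thus detectable more often in abundant transcripts. Among transcripts at 100 CPM or more, more fell than rose also without DMSO replicate 1 (23.6% and 6.57%) and with unscaled library sizes (23.9% and 14.9%).

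The 20 most abundant transcripts of each H1047R library held 10.7% to 11.2% of its estimated pairs. Of the 20 with the highest mean level in H1047R cells, 0 rose and 2 fell by edgeR's test, and their log2 fold changes ran from -0.22 to 0.19. The most abundant one, a transcript of 5930 nt, was at 21305, 20916 and 20678 CPM in DMSO and at 17165, 18485 and 18355 CPM with GDC0032 (log2 -0.22, SE 0.0545, adjusted p = 0.0293). The treated and DMSO libraries did not overlap. In wild-type MEF the same transcript had a log2 change of -0.22 that did not pass the test (adjusted p = 0.0972).

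Length was a further property that the calls followed. Among transcripts at 10 CPM or more, the share that rose was 1.58% under 500 nt (3 of 190), 6.07% from 1000 to under 2000 nt, 11.3% from 3000 to under 4000 nt and 16.6% at 6000 nt or more (263 of 1584). The share that fell was 22.8%, 22.6% and 13.7% in the last 3 of these classes, and of the 7 length classes only that of 6000 nt or more held more risers than fallers. The median log2 fold change was -0.08 from 1000 to under 2000 nt and 0.02 at 6000 nt or more, a difference of 0.10 that was 0.08 without DMSO replicate 1 and 0.09 with offsets for effective length. In wild-type MEF the medians of these classes were 0.00 and -0.01. These transcripts share libraries and depth, and their difference by length is given without a test.

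Single libraries showed the same pattern. Relative to the wild-type DMSO mean of each transcript (log2 of CPM plus 0.5), the median for transcripts of 1000 to under 2000 nt was 0.128, 0.112 and 0.0846 in the H1047R DMSO libraries. It was 0.0347, 0.0460 and -0.00895 with GDC0032, so the groups did not overlap. For transcripts of 6000 nt or more the medians were -0.0291, 0.0159 and -0.0153 in DMSO and 0.0248, -0.0114 and 0.0151 with GDC0032, and these overlapped. RNA quality was not measured in the files, and its part in the pattern by length was not tested.

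**Figure D2:**
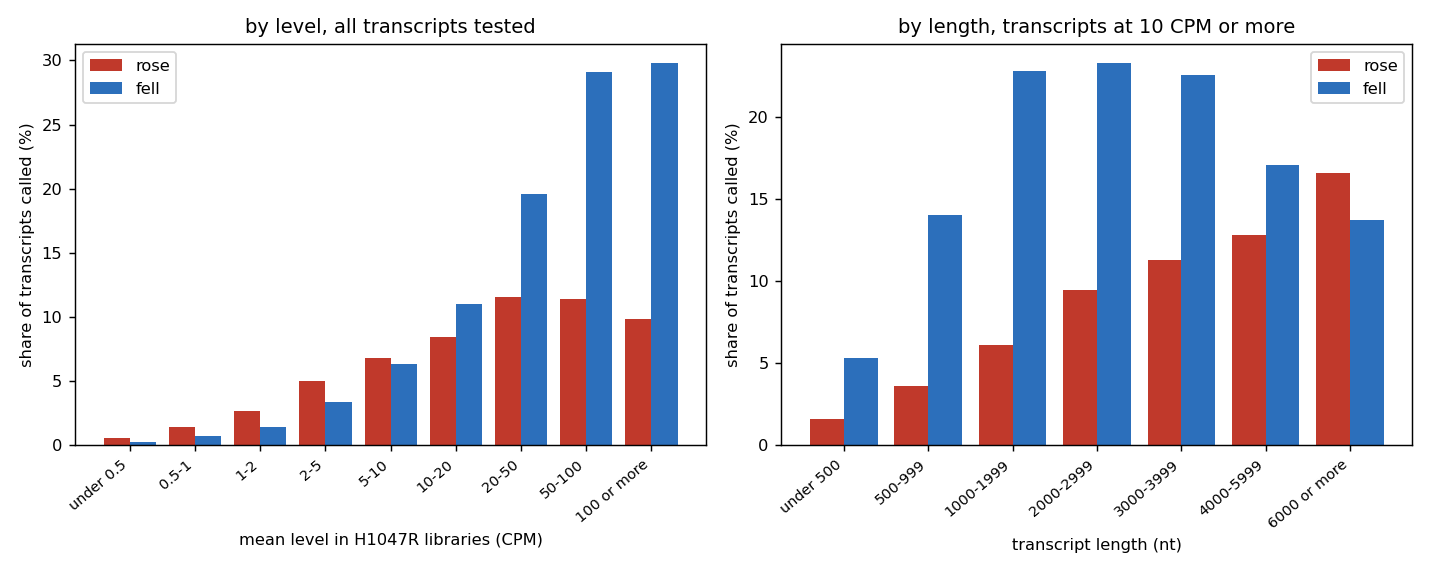
Bars give the share of transcripts that rose (red) or fell (blue) with GDC0032 in H1047R MEF, on the left by mean level in CPM and on the right by transcript length in nt for transcripts at 10 CPM or more. Fallers reach 29.8% at 100 CPM or more against 9.80% risers, and risers pass fallers only in the class of 6000 nt or more.

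The transcripts with the best-supported large changes were examined library by library. By one rule (adjusted p under 0.05, no overlap between groups, a mean of at least 2 CPM over the 6 libraries), the 14 largest changes were taken in each direction, and the 3 with the smallest p in each are described by their length. These 3 were chosen after their values were seen. Apart from transcripts at 0 in every library of 1 group, the 14 risers had log2 fold changes of 1.47 to 2.45 and the 14 fallers of -1.46 to -4.0. The transcript of 3484 nt was at 51.8, 50.9 and 50.2 CPM in DMSO and at 177, 165 and 156 CPM with GDC0032. It rose 3.25-fold (log2 1.70, SE 0.0475, adjusted p = 1.78e-07), and its lowest treated library was far above the highest DMSO library.

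The transcript of 2614 nt rose from 16.8, 17.1 and 19.2 CPM to 53.4, 50.1 and 46.4 CPM, a 2.82-fold change (log2 1.5, SE 0.0632, adjusted p = 8.60e-07). The transcript of 824 nt, at a lower level, rose from 3.20, 3.47 and 3.75 CPM to 9.65, 9.47 and 10.7 CPM (2.86-fold, log2 1.52, SE 0.107, adjusted p = 2.17e-05). In both, the replicates of a group lay close together; the rule admitted only transcripts whose groups did not overlap.

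Among the fallers, the transcript of 4627 nt was at 115, 116 and 109 CPM in DMSO and at 29.8, 33.7 and 33.8 CPM with GDC0032. This was a 3.49-fold drop (log2 -1.80, SE 0.0588, adjusted p = 3.62e-07). The transcript of 1758 nt fell from 173, 175 and 167 CPM to 59.0, 67.3 and 61.4 CPM (2.75-fold, log2 -1.46, SE 0.0528, adjusted p = 5.59e-07). The transcript of 1982 nt fell from 76.4, 72.0 and 68.4 CPM to 24.8, 26.6 and 26.2 CPM (2.79-fold, log2 -1.48, SE 0.0579, adjusted p = 6.32e-07).

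The largest fitted changes of all belonged to transcripts with a rounded count of 0 in every library of 1 group. The numbers of transcripts at 0 or above 0 that follow use rounded counts. Of the transcripts tested, 91 were at 0 in all 3 DMSO libraries and above 0 in all 3 GDC0032 libraries, and 70 showed the opposite. The test called 28 transcripts that were at 0 in every DMSO library and 23 that were at 0 in every GDC0032 library, 51 of the 5560 calls. Their levels were low, at most 7.87 CPM (mean with GDC0032) and 5.42 CPM (mean in DMSO). Salmon divides reads among similar transcripts, so an estimate of 0 can mean that the reads were given to another transcript. Of the 51, 4 were also at 0 in every wild-type library. Before rounding, 0 of the 51 had whole-number counts in all 12 libraries. Among all transcripts tested this share was only 2.92%, so the 0 does not set these transcripts apart. The fitted fold change of such a transcript depends on the prior count, so bounds against a floor of 3 counts over the group are given in its place. These bounds hold for the estimates as listed, and not where reads were given to another transcript. They rest on counts pooled over a group and leave out the spread between its libraries.

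By the rule above, the transcripts with the largest rises were ENSMUST00000228022.1 (2496 nt) and ENSMUST00000049239.7 (4452 nt). ENSMUST00000228022.1 was at 0 in all DMSO libraries and at 3.15, 9.09 and 11.4 CPM with GDC0032 (1083 counts in all). By these estimates it was at least 377-fold higher. Its adjusted p was 0.0413. In wild-type MEF it was at 4.57, 2.97 and 4.14 CPM in DMSO and at 0, 16.4 and 17.1 CPM with GDC0032, so that 1 treated library held none.

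ENSMUST00000049239.7 was at 0 in DMSO and at 7.08, 7.53 and 6.16 CPM with GDC0032 (941 counts). By these estimates it was at least 328-fold higher, with an adjusted p = 0.0492 in edgeR's test. Its wild-type levels were 0, 0.726 and 0 CPM in DMSO and 0, 3.82 and 5.08 CPM with the inhibitor. Both rises lost their call when any 1 of the 6 H1047R libraries was left out (adjusted p = 0.0652 to 0.107 for the first and 0.0979 to 0.119 for the second). They lost it as well when any wild-type library other than GDC0032 replicate 1 was left out (adjusted p up to 0.0698 and 0.0776), and without the filter on low counts (0.105 and 0.123).

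The transcripts with the largest falls were ENSMUST00000084170.11 (4483 nt) and ENSMUST00000216677.1 (5149 nt). ENSMUST00000084170.11 was at 5.74, 3.06 and 7.44 CPM in DMSO (778 counts) and at 0 in all GDC0032 libraries. By these estimates it was at least 248-fold lower (adjusted p = 4.90e-05 in edgeR's test). In wild-type MEF it was present in all 6 libraries, at 6.17, 5.53 and 7.14 CPM in DMSO and 4.72, 3.96 and 5.82 CPM with GDC0032. ENSMUST00000216677.1 was at 5.76, 3.74 and 5.20 CPM in H1047R DMSO libraries (704 counts) and at 0 with GDC0032. By these estimates it was at least 225-fold lower (adjusted p = 0.000929 in edgeR's test). It was at 0 in all 6 wild-type libraries, so the H1047R DMSO group was the one group with counts. Both falls kept their call when any 1 of the 12 libraries was left out.

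**Figure D3:**
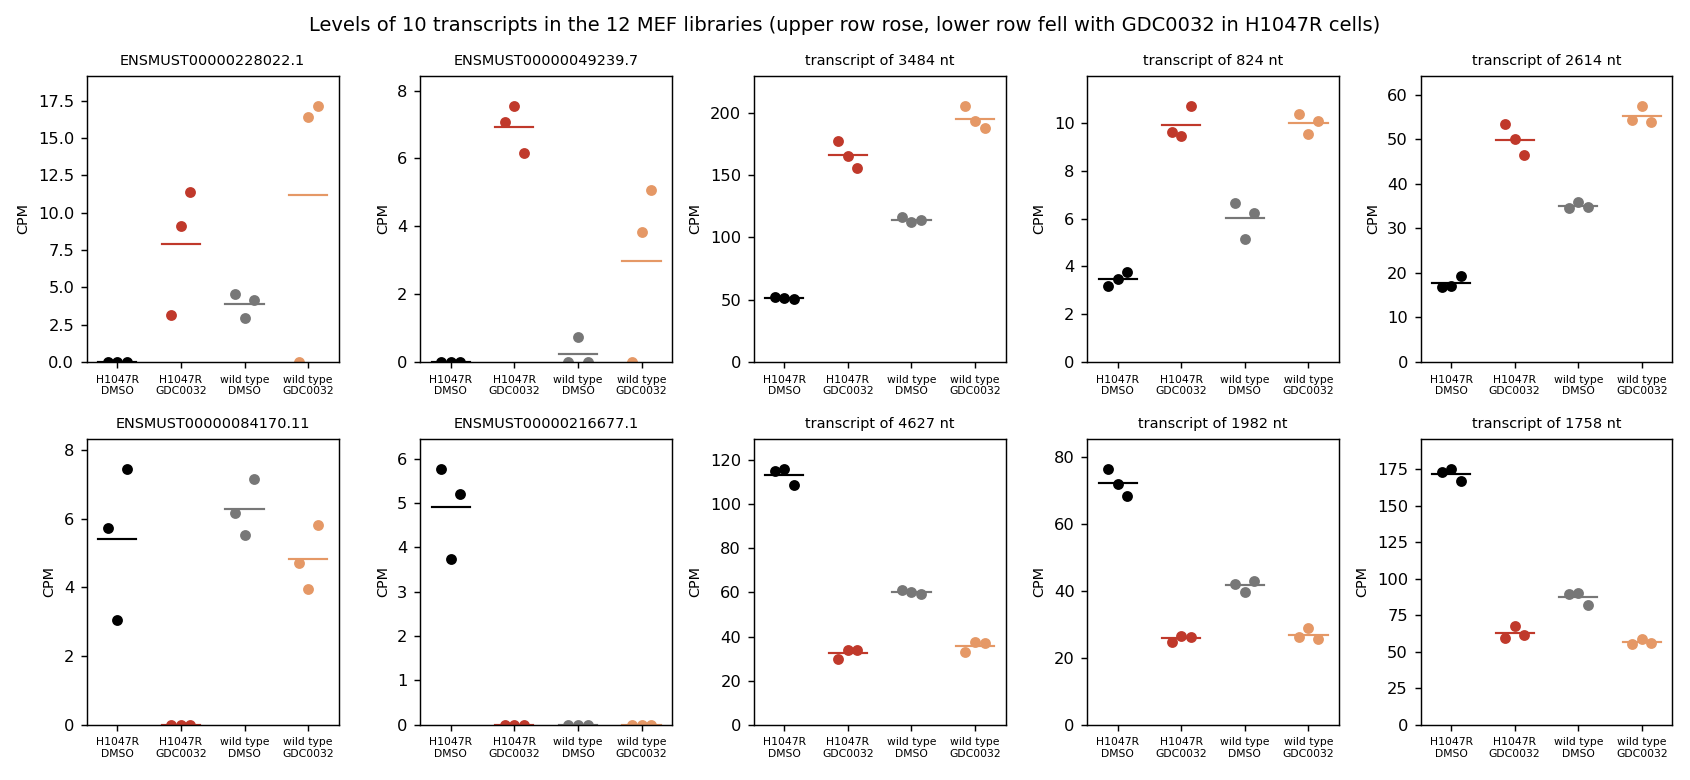
Each panel shows 1 transcript in CPM, with 1 point per library and a bar at the mean of 3 libraries, for H1047R and wild-type MEF in DMSO and GDC0032. In the 6 panels titled by length, the wild-type DMSO libraries lie between the H1047R DMSO and the H1047R GDC0032 libraries, and in the 4 panels titled by identifier 1 H1047R group is at 0.

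The next question was where these levels lay in wild-type cells, whose libraries played no part in choosing the transcripts beyond the shared estimate of the spread. In the 6 transcripts described by length, wild-type DMSO cells had a level between the H1047R groups, and wild-type cells with GDC0032 differed from treated H1047R cells in 1 of the 6, that of 3484 nt (adjusted p = 0.0457 by edgeR, and 0.255 to 0.989 in the other 5). The transcript of 3484 nt was at 114 ± 1.86 CPM in wild-type DMSO and 195 ± 8.76 CPM in wild-type GDC0032 libraries (SD, n = 3), beside 51.0 ± 0.830 and 166 ± 10.7 CPM in H1047R cells. The transcript of 1982 nt was at 41.7 ± 1.76 and 26.8 ± 1.69 CPM in wild-type cells (SD, n = 3), beside 72.3 ± 4.00 and 25.9 ± 0.966 CPM in H1047R cells. All 6 transcripts changed in the same direction in wild-type cells (adjusted p = 0.000165 to 0.0107), by log2 0.65 to 0.78 in the 3 risers and -0.63 to -0.75 in the 3 fallers.

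The same order was seen in most transcripts with larger changes. Of the 890 that rose by at least 1.5-fold, the wild-type DMSO mean lay between the H1047R means in 757, beyond the GDC0032 mean in 113 and beyond the DMSO mean in 20. Of the 647 that fell by at least 1.5-fold, it lay between in 555, beyond the GDC0032 mean in 44 and beyond the DMSO mean in 48. The wild-type GDC0032 mean was beyond the H1047R GDC0032 mean in 450 of the risers and 244 of the fallers. Transcripts chosen for a large change have extreme H1047R means, so these counts describe the transcripts and are not tested.

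Summed abundance showed the order in single libraries. The 2382 risers together took 6.30%, 6.29% and 6.38% of all TPM (transcript abundance per length, relative to the library) in H1047R DMSO libraries and 8.27%, 8.09% and 8.11% with GDC0032. In wild-type MEF they took 7.69%, 7.66% and 7.75% in DMSO and 8.25%, 8.36% and 8.24% with the inhibitor. The 3178 fallers took 17.8%, 17.8% and 17.6% in H1047R DMSO and 14.5%, 15% and 14.7% in H1047R GDC0032 libraries. They took 15.4% to 15.6% in wild-type DMSO and 14.4% to 14.5% in wild-type GDC0032 libraries. The H1047R DMSO libraries were the lowest for risers and the highest for fallers, with no overlap with any other group. The choice of transcripts fixed the direction between the H1047R groups. It also favours a distance of H1047R DMSO from wild-type DMSO libraries, so this order describes the chosen transcripts and is not tested.

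**Figure D4:**
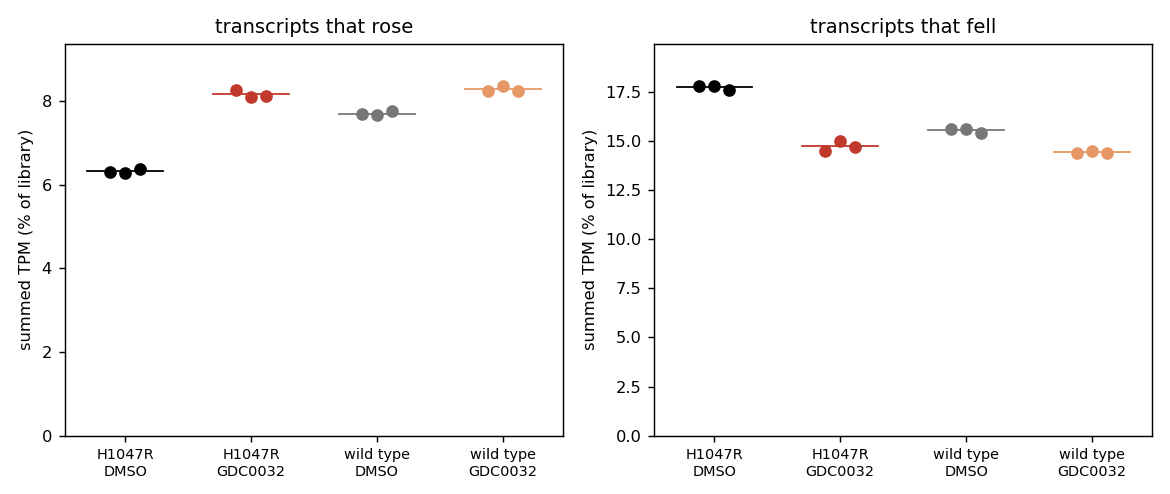
Points are the 12 MEF libraries and bars the means of 3, showing the share of all TPM held by the transcripts that rose (left) or fell (right) with GDC0032 in H1047R cells. The H1047R DMSO libraries stand apart at 6.29% to 6.38% and 17.6% to 17.8%, which the choice of transcripts on H1047R libraries favours. The treated libraries of both genotypes lie near each other.

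Differences between the genotypes were tested in each treatment with the same fit. In DMSO 5385 transcripts (9.70%) differed between H1047R and wild-type MEF, and under GDC0032 549 did (0.989%). These 2 comparisons share no library with each other, but each shares 3 libraries with the inhibitor comparison in H1047R cells. Wild-type GDC0032 replicates differed more among themselves, with a chi-square per degree of freedom of 10.3 to 12.2 against 8.49 to 8.94 in the H1047R groups. The part of this in the lower count was not tested. Wild-type DMSO replicates 1 and 2 were the closest pair of all at 7.27, and the other wild-type DMSO pairs were at 8.54 and 8.92. These libraries also enter the shared spread, and the part of their closeness in the counts of calls was not tested. Leaving out 1 library gave 3427 to 5330 calls in DMSO and 155 to 452 under GDC0032, with the lowest counts without wild-type DMSO replicate 1 and without H1047R GDC0032 replicate 2. DESeq2 called 8256 and 2960.

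Fewer transcripts were called for GDC0032 in wild-type than in H1047R MEF. In wild-type cells 635 transcripts were called (1.14%), 280 that rose (0.505%) and 355 that fell (0.640%), against 5560 in H1047R cells. Leaving out wild-type DMSO replicate 1 or 2 gave 136 or 171 calls, leaving out wild-type GDC0032 replicate 1 or 2 gave 269 or 395, and leaving out H1047R DMSO replicate 1 or 2, which enter through the shared spread, gave 420 or 418. Of the 280 wild-type risers, 209 (74.6%) were also risers in H1047R cells, which was 8.77% of the H1047R risers. Of the 355 wild-type fallers, 294 (82.8%) were also fallers in H1047R cells, 9.25% of the H1047R fallers. Opposite calls were made for 4 transcripts, all of which rose in H1047R and fell in wild-type cells.

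Response sizes were also set side by side in transcripts called in the wild-type comparison, where the choice favours a large change in wild-type cells. The H1047R libraries entered this choice only through the shared fit. The 280 wild-type risers had a median log2 fold change of 0.30 in wild-type and 0.41 in H1047R cells. The 355 wild-type fallers had medians of -0.30 and -0.39. In 427 of the 635 (67.2%) the H1047R change had the same sign and was the larger one. Conversely, the 2382 H1047R risers had a median of 0.16 in wild-type cells and the 3178 H1047R fallers a median of -0.12.

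The difference between the responses was tested directly by the interaction, the inhibitor effect in H1047R cells minus that in wild-type cells. The test called 459 transcripts (0.827%), 174 with a more positive (0.314%) and 285 with a more negative effect (0.514%) in H1047R cells. In 339 of them the change had the same sign in both genotypes and was larger in H1047R cells, in 5 it was larger in wild-type cells, and in 115 the fitted signs were opposite. Of these 115, only 4 were called in both genotypes. Of the 459, 436 were also called in H1047R cells and 121 in wild-type cells. All 6 transcripts described by length were among them, with the transcript of 3484 nt at an interaction of log2 0.93 (SE 0.0654, adjusted p = 0.000908) and that of 4627 nt at -1.05 (SE 0.0813, adjusted p = 0.00127). The transcript of 824 nt passed only narrowly (adjusted p = 0.0477 by edgeR). These 6 were chosen for large changes with a small p in the H1047R libraries, which favours an interaction in that direction. The count was sensitive to single libraries: it was 136 without wild-type DMSO replicate 1 and 160 without H1047R DMSO replicate 1, and leaving out any 1 of the 12 gave 136 to 308.

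**Figure D5:**
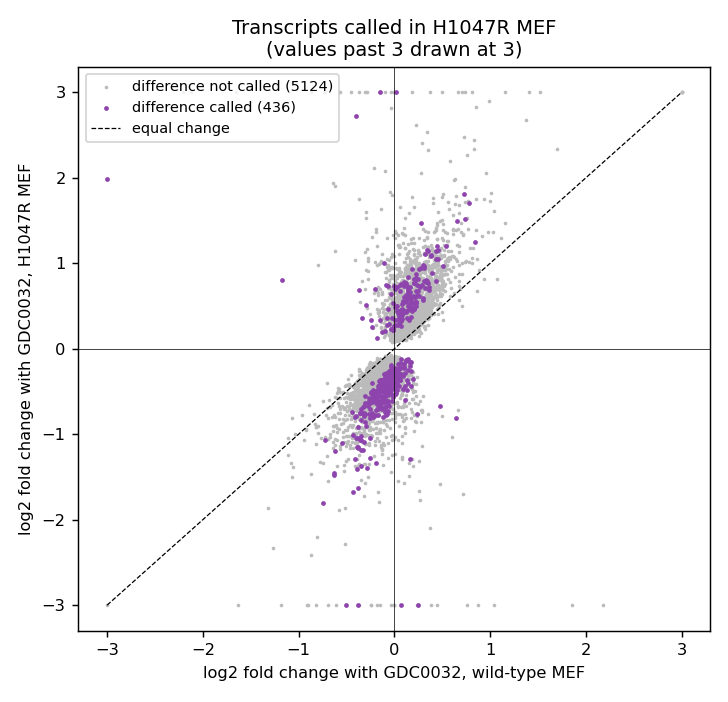
Each point is 1 of the 5560 transcripts called in H1047R MEF, with its log2 fold change with GDC0032 in wild-type (horizontal) and H1047R cells (vertical); purple points are the 436 for which the difference between genotypes was also called. Points between the vertical axis and the dashed line of equal change have a larger change in H1047R cells, which the choice of transcripts on H1047R libraries favours.

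The certainty of the counts themselves differed between transcripts. In 1619 of the 55500 transcripts tested (2.92%) the estimated counts were whole numbers in all 12 libraries to within 0.0005, as they are where no read is divided. This split was chosen after the data were seen. Of these, 314 were called (19.4%), 118 that rose and 196 that fell, and of the other 53881 transcripts 5246 were called (9.74%). At 10 to 100 CPM, 161 of 355 whole-count transcripts (45.4%) and 2825 of 10252 others (27.6%) were called. The median standard error of the log2 fold change in this range was 0.0527 for whole-count transcripts and 0.0687 for the others.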

How the data were processed

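Per the submitters' processing notes, the authors used Trim Galore 0.6.1, cutadapt, Salmon 1.2.1 and DESeq2 1.28.1, and the builds GRCm38 and GRCh38 are named. Annotation release, RNA selection and strandedness are unknown here. The deposited tables hold expected counts, TPM, and length and effective length in nt for each transcript and library. Expected counts were rounded to whole numbers, and 1 model of 4 group means was fitted to the 12 MEF libraries in edgeR 4.0.16 under R 4.3.3 (quasi-likelihood, robust, filterByExpr, TMM, 8 residual degrees of freedom, two-sided tests). Salmon's assignment error is not seen by this test. Standard errors were derived from it, as the absolute log2 fold change divided by the square root of the F statistic. Alternatives were DESeq2 1.42.0, other scalings and filters, a replicate block, the 6 H1047R libraries alone and leaving out each library. Library-size scaling and effective-length offsets on transcripts were chosen after seeing the data, as was the comparison of genotypes under GDC0032. The groups, the naming rule and unused gene lists were chosen with earlier results of these data known. The rule took the 14 largest called changes in each direction without overlap and with at least 2 CPM, and identifiers were printed for 2 in each. Total RNA was sequenced as pairs of reads; the lowest and highest library totals of the 6 H1047R libraries were 44494469 and 52510597 estimated pairs, and 0 columns of other series were present. Same-numbered libraries were not paired (see the closing section). The fit was tested on simulated counts, with changes set in transcripts of at least 2 CPM. Changes of 1.5-fold, 2-fold and 4-fold were set in only 67, 67 and 66 of 55500 transcripts, while 5560 were called in the data. The fit recovered 32.8% of changes of 1.5-fold, 62.7% of 2-fold and 97% of 4-fold. Adjusted p depends on how many transcripts change, so these shares need not hold for the data. Read assignment by Salmon was not simulated.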

Additional observations from a re-analysis of the deposited data

Results flagged for a closer look

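The GDC0032 effect differed between H1047R and wild-type MEF in 459 transcripts by edgeR's test of the interaction. Among the transcripts described, the effect in H1047R minus that in wild-type cells was log2 0.93 for the transcript of 3484 nt, 0.84 for that of 2614 nt and 0.78 for that of 824 nt. The last of these was close to the threshold (adjusted p = 0.0477 by edgeR). The difference was -1.05 for the transcript of 4627 nt, -0.85 for that of 1982 nt and -0.83 for that of 1758 nt. These 6 were chosen for large changes with a small p in the H1047R libraries, which favours such a difference. For ENSMUST00000084170.11 the fitted difference was -10.6 (adjusted p = 0.0031), a value that depends on the prior count because treated H1047R libraries are at 0; the wild-type libraries held 880 counts in DMSO and 641 with GDC0032.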

How the results depend on the processing

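The H1047R comparison called 5560 transcripts; RLE scaling gave 5528, DESeq2 8270, no filter on low counts 4414, the 6 H1047R libraries alone 4318, library-size scaling 5492, effective-length offsets 5762, and a change of at least 1.5-fold 1537. Of the 5560, 5487 were also called by DESeq2 in the same direction. There were 3728 to 4241 calls with 1 H1047R library left out and 4862 to 5491 with 1 wild-type library left out. By DESeq2, 3627 rose (2382 by edgeR) and 995 fell by at least 1.5-fold (647 by edgeR); 10892 transcripts had no adjusted p. The 635 wild-type calls became 2700 with DESeq2 and 401 without the filter, and were 136 to 590 with 1 library left out; the 549 between genotypes under GDC0032 became 357 without the filter. The 459 interaction calls became 2380 with DESeq2, 205 without the filter, and 136 to 308 with 1 library left out; the cause was not tested, though fewer samples leave fewer degrees of freedom.

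The replicate numbers did not pair the libraries: same-numbered DMSO and GDC0032 libraries correlated at -0.028 to 0.0054 in their deviations from group means, and 1 of 6 H1047R libraries correlated best with its own number. With a replicate block, 3079 transcripts were called in H1047R cells, 4 for the interaction, 2 in wild-type cells, 2780 between genotypes in DMSO and 2 between genotypes under GDC0032. The block leaves fewer residual degrees of freedom than the 8 of the main model, and the part of this in the lower counts was not tested. Of the 10 transcripts described, ENSMUST00000228022.1 (adjusted p = 0.22) and ENSMUST00000049239.7 (adjusted p = 0.149) lost their call under the block, and the others kept it. No described transcript changed direction under any alternative run. Depth limits low transcripts: the median standard error of the log2 fold change was 0.35 between 0.5 and 1 CPM.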
